A study of Rattus norvegicus with 59 samples.

Results

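Line differences in the frontal cortex were taken from the 11 arrays whose titles name the cortex, out of 59 arrays that covered 5 brain regions of 12 adult male rats. They were 5 rats of the inbred alcohol-preferring line iP5C (iP, animals 1 to 5) and 6 of the inbred non-preferring line iNP1 (iNP, animals 7 to 12). The sixth iP rat has no cortex value here (not analysed here). Per the labels' protocols, RNA of each rat was labelled and hybridised on its own, the rats lived in pairs with chow and water, and no alcohol treatment is named. The line came from the title and the genotype label, because the source name gives iNP for every array. Each line is a single inbred line, so differences tied to selection and differences fixed by inbreeding cannot be told apart.

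The iP and iNP rats descend from selective breeding for high and for low voluntary alcohol drinking. The frontal cortex holds glutamatergic projection neurons, GABAergic interneurons and glia, and takes part in the control of choice and reward seeking. Inbreeding fixes alleles throughout the genome, and a fixed allele can alter the level of a nearby gene's RNA in every tissue that expresses it. A probe set of this array is a group of short oligonucleotides against one transcript, so a base difference under the probes can also alter its signal; that was not tested.

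Values are log2 signals, with deposited signals under 16 raised to 16 (4.00 on the log2 scale). A difference is iP minus iNP in log2 units with its standard error (SE) from limma, and a call is a Benjamini-Hochberg adjusted p under 0.05 over 5244 probe sets. With all 11 arrays limma called 12 probe sets, 0.229% of those tested, with 6 higher in iP (0.114%) and 6 lower (0.114%). Without the array of iP animal 5 it called 24, or 0.458%, with 10 higher (0.191%) and 14 lower (0.267%). All 12 were among the 24. An unadjusted p under 0.05 was reached by 276 probe sets with 11 arrays (5.26%) and by 284 with 10 (5.42%), where 5% of the probe sets is 262.2.

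Of the 24 probe sets, 19 carry 1 gene symbol and stand for 18 genes. RefSeq sequence just before the gene start (build GRCr8) was at hand for 16 of these. It is printed for the 2 largest rises and the 2 largest falls called with 11 arrays that had an entry, and for Gsta4, the one gene called on 2 probe sets. Each run of 250 bases ends at the base before the annotated start and is written 5′ to 3′ on the gene's strand. Capitals mark matches, on either strand, to GGGCGG (the GC box), CCAAT (the box bound by NF-Y), CACGTG (an E box), TGACGTCA (the cAMP response element) or TATAAA.

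Akap11, chr15:60365336-60365585, minus strand: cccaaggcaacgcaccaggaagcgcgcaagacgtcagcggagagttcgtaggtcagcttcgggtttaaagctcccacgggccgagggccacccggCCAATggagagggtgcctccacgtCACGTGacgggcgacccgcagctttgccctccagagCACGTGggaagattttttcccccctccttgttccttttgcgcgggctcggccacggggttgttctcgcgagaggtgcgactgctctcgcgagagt
Arpc4, chr4:148077649-148077898, plus strand: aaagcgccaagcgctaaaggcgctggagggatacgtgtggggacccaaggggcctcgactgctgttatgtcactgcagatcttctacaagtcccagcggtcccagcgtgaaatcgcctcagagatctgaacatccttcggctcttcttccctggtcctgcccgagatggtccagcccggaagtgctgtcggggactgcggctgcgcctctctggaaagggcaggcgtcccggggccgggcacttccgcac
Paqr3, chr14:12766355-12766604, plus strand: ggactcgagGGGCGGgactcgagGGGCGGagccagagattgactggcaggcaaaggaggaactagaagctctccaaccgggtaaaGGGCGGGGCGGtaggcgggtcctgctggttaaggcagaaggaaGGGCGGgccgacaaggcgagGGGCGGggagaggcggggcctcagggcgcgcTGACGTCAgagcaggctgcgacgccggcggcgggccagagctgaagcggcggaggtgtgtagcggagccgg
Ddx42, chr10:91648986-91649235, plus strand: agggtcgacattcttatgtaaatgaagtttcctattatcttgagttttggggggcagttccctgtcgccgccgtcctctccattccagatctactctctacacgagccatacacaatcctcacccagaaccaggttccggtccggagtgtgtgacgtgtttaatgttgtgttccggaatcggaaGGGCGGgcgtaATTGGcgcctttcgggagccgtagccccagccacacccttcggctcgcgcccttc
Gsta4, chr8:87947015-87947264, plus strand: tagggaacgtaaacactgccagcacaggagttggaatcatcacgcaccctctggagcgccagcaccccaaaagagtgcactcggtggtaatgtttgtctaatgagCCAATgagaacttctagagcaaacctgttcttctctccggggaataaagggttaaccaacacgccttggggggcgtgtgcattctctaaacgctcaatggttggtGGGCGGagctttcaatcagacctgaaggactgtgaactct

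The Akap11 window held 2 CACGTG matches and 1 CCAAT, and the Paqr3 window held 6 GGGCGG matches, of which a pair overlap, and 1 TGACGTCA. Ddx42 and Gsta4 each had 1 GGGCGG and 1 CCAAT, the latter on the reverse strand in Ddx42. No letters matched in the Arpc4 window, and TATAAA was in none of the 5. Over 33469 rat promoter windows of the same length, 30.5% held GGGCGG, 34% CCAAT, 5.59% CACGTG, 1.59% TGACGTCA and 12.9% TATAAA. These are the reference genome's letters, not those of iP or iNP rats.

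One array stood apart before any comparison was made. In iP animal 5 the log2 ratio of 3′ to 5′ signal, which grows as RNA or its copies are shortened, was 6.14 for Gapdh, against at most 0.44 on the other 58 arrays of all regions. Its ratio was 4.42 for actin and 2.85 for hexokinase, where the other 10 cortex arrays reached at most 1.10 and 1.21. Its median signal was 254, against 326 to 357, and its mean correlation with the other 10 arrays was 0.81, against 0.96 to 0.969 among these 10. It was lowest of the 11 arrays on 1481 probe sets and highest on 1432, while each other array was lowest or highest on 211 to 614. In an exact permutation test over arrays, two-sided, no line difference was detected in median signal or the 3 ratios. After Benjamini-Hochberg adjustment over 4 measures, its p was 0.5 with 11 arrays and 0.857 with 10. There are 462 possible splits of the 11 arrays and 210 of the 10, which limits how small a raw p can be. The test cannot show a shift that 1 array carries. With 11 arrays the mean Gapdh log2 ratio was 1.27 in iP and 0.0733 in iNP.

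**Figure D1:**
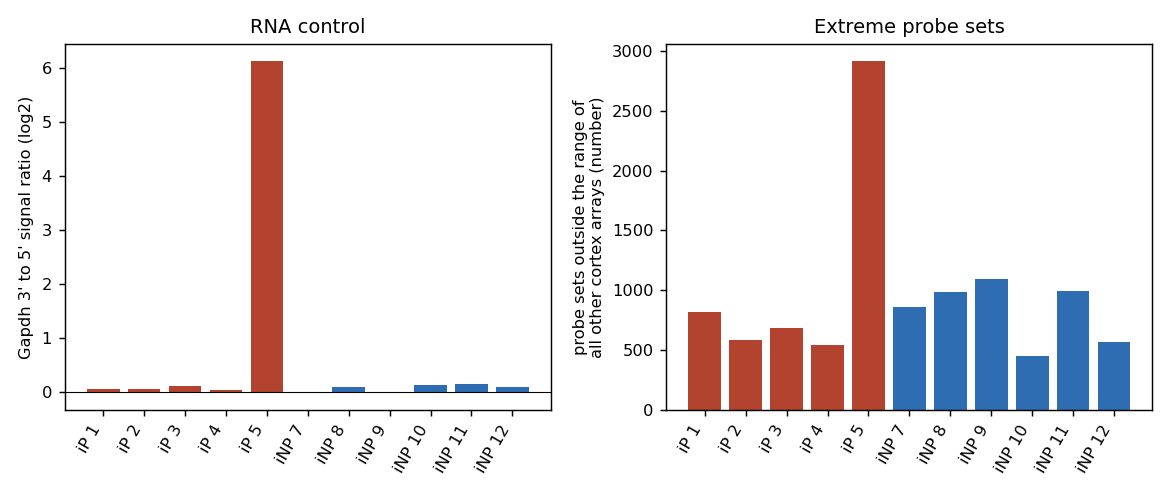
Left, log2 ratio of 3′ to 5′ Gapdh signal in each cortex array; right, number of probe sets on which an array lay outside the range of the other 10. Bars are single arrays, red for iP and blue for iNP. The array of iP animal 5 stands alone in both, at 6.14 on the left.

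The cortex label was checked against the other 4 regions with limma, with the animal as a block. Of 10 tested markers of cortical projection neurons, 5 were higher in cortex, led by Plcb4 (1.32), Nefh (0.89) and Nrgn (0.65). Lower were 3, Pcp4 (-0.58), Nr4a2 (-0.56) and Neurod1 (-0.38). Of 15 markers of cortical interneurons 6 were higher and 6 lower, so that list gave no direction. Of 10 markers of striatal projection neurons none was higher and 9 were lower, and of 7 amygdala and ventral forebrain markers none was higher and 4 were lower, where 7.86% of all probe sets were higher and 9.19% lower. The mean over the projection-neuron markers was 10.35 in iP animal 5, 10.67 to 10.78 in the other 4 iP arrays and 10.71 to 10.87 in iNP. Its mean over the striatal markers was 9.02, also below the other 10 cortex arrays (9.54 to 9.95).

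Among signalling genes, Akap11 (U48288_at) had the largest rise that held with all 11 arrays. Akap11 encodes an A-kinase anchoring protein, which holds protein kinase A close to its substrates. It read 11.67, 11.01, 9.77, 11.48 and 11.00 in iP animals 1 to 5, and 8.34 to 9.40 in the 6 iNP animals with a median of 8.85. Every iP array was above every iNP array, including that of animal 5. The difference was 2.16 ± 0.30 (SE), a 4.47-fold rise with a limma adjusted p of 0.0084, and 2.16 ± 0.31 without animal 5 (adjusted p 0.00387).

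Paqr3 (rc_AI071866_s_at) fell the most among the genes called with 11 arrays. The protein sits in the Golgi membrane, where it can hold Raf kinase away from the plasma membrane. It read 8.01, 7.96, 7.40, 8.01 and 6.24 in iP, and 9.27 to 9.93 (median 9.53) in iNP. The lines did not overlap, and animal 5 gave the lowest value. The difference was -2.02 ± 0.30 (limma adjusted p 0.0119), and -1.70 ± 0.17 (adjusted p 0.000165) without animal 5.

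Ptprj (U40790_at), a receptor tyrosine phosphatase, had no settled direction. In iP it read 10.60, 10.58, 10.44, 10.65 and then 5.44 in animal 5, and in iNP 9.09 to 10.22 (median 9.65). The first 4 iP arrays lay above all 6 iNP arrays, and the fifth lay far below them. Without animal 5 Ptprj was called, at 0.95 ± 0.18 (limma adjusted p 0.0307), and with it the difference was -0.07 ± 0.82 (adjusted p 0.99).

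In heparan sulfate synthesis, Hs6st1 (rc_AA859740_at) had the largest difference of the 24. The enzyme adds sulfate to heparan sulfate, the sugar chain through which many growth factors and Slit proteins are bound at the cell surface. It read 11.09, 10.72, 10.89 and 10.90 in iP animals 1 to 4 but 5.70 in animal 5, and 5.72 to 7.03 (median 6.54) in iNP. Animal 5 read just below the lowest iNP array, and the other 4 lay far above them. Without it the difference was 4.48 ± 0.26 (limma adjusted p 1.21e-06), and with it 3.44 ± 0.85 (adjusted p 0.279), which was not called. With animal 5 kept, Hs6st1 was called after quantile normalization (4.01, limma adjusted p 0.00664) and with all regions in 1 fit (3.44, adjusted p 6.66e-07). Hs6st1 was also called with array weights (4.43, adjusted p 1.4e-05) and with the Gapdh ratio as a covariate (4.46, adjusted p 2.01e-06). Those last fits do not fully keep animal 5, and their estimates lie near the 4.48 without it. Array weights can count an outlying array less. The Gapdh log2 ratio was 6.14 in animal 5 and at most 0.149 in the other cortex arrays, so the covariate nearly singles it out. The iNP level lies below the median signal of every array and no detection call was used, so no fold is given.

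Slit3 (AB011531_at), a secreted ligand of Robo receptors that guides growing axons, was lower in iP. It read 7.51, 6.23, 6.45, 6.22 and 7.30 in iP, and 7.93 to 8.97 (median 8.39) in iNP, with no overlap. The difference was -1.67 ± 0.28 (limma adjusted p 0.0355) and, without animal 5, -1.81 ± 0.29 (adjusted p 0.00872). With 11 arrays the call was lost when any single array other than iP 1, iP 5 or iNP 10 was left out, with adjusted p from 0.0829 to 0.12 and differences from -1.69 to -1.54. It was also lost without the filter on dim probe sets (adjusted p 0.0725) and with quantile normalization (adjusted p 0.151).

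In metabolism, Pgk1 was higher and Gsta4 lower in iP. Pgk1 (rc_AA892797_at) encodes phosphoglycerate kinase, an ATP-making step of glycolysis. It read 13.57, 13.39, 13.63, 13.63 and 13.90 in iP, and 12.02 to 12.90 (median 12.49) in iNP. No arrays of the lines overlapped, at 1.17 ± 0.15 (limma adjusted p 0.00553) and 1.10 ± 0.14 without animal 5 (adjusted p 0.00171). A second Pgk1 probe set, M31788_g_at, read 12.52 to 12.91 in iP and 12.37 to 12.71 in iNP, with a difference of 0.13 ± 0.09 that was not called (0.06 ± 0.08 without animal 5).

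Gsta4 is a glutathione transferase that conjugates products of lipid peroxidation such as 4-hydroxynonenal. Its brighter probe set (X62660mRNA_g_at) read 9.44, 9.49, 9.24, 9.33 and 9.68 in iP, and 10.31 to 10.74 (median 10.53) in iNP. Every iP array lay below every iNP array, at -1.08 ± 0.11 (limma adjusted p 0.00228) and -1.14 ± 0.11 (adjusted p 0.000147) without animal 5. The other probe set (X62660mRNA_at), from the same transcript record, read 8.66, 8.82, 8.66, 9.00 and 9.37 in iP, and 9.36 to 9.70 in iNP. There animal 5 alone overlapped iNP, and the call was made with 10 arrays and not with 11 (-0.79 ± 0.12, limma adjusted p 0.0059, against -0.67 ± 0.14 and 0.132).

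Sdhaf2 (rc_AA891978_at), which helps attach FAD to succinate dehydrogenase, read 9.87, 9.99, 9.98, 9.83 and 10.17 in iP, and 10.51 to 11.06 (median 10.83) in iNP. The lines did not overlap, at -0.83 ± 0.12 with 11 arrays (limma adjusted p 0.0084) and -0.88 ± 0.11 with 10 (adjusted p 0.00173). Phgdh, the first enzyme of serine synthesis from glucose, was called with 10 arrays and not with 11. Its probe set X97772_at read 11.08, 11.13, 10.73, 11.15 and 10.22 in iP, and 11.46 to 11.83 (median 11.68) in iNP. The lines did not overlap on all 11 arrays, but the spread within iP was wider with animal 5 (-0.79 ± 0.16, limma adjusted p 0.11, against -0.63 ± 0.11 and 0.0151 without it). A second probe set of the same record, X97772_g_at, gave -0.55 ± 0.12 without animal 5 (adjusted p 0.0596), and another, rc_AI008677_s_at, -0.27 ± 0.14 (adjusted p 0.998).

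Slc5a3 and Mfsd10, both membrane transport proteins, were called with 10 arrays and not with 11. Slc5a3 (AJ001290cds_at), the sodium-coupled carrier of myo-inositol, read 9.12, 9.26, 8.63, 9.05 and 8.14 in iP, and 9.69 to 10.25 (median 9.84) in iNP. No arrays overlapped, at -0.88 ± 0.15 (limma adjusted p 0.0142), against -1.06 ± 0.20 (adjusted p 0.0619) with animal 5. Mfsd10 (rc_AA866425_at), a membrane protein of the major facilitator superfamily, read 9.01, 8.84, 9.19, 8.88 and 8.34 in iP, and 5.79 to 8.16 (median 7.18) in iNP. The iP arrays were close to each other and the iNP arrays spread widely, without overlap, at 2.02 ± 0.39 (adjusted p 0.0376), against 1.89 ± 0.38 (adjusted p 0.094) with animal 5. With animal 5 kept and iNP animal 10 left out in its place, Mfsd10 was called as well (2.13, limma adjusted p 0.0285). That iNP array had the highest iNP value (8.16), so leaving it out had to widen the gap and is no support for the call.

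Clns1a (rc_AI169005_at), whose product takes part in assembling spliceosomal ribonucleoproteins and was first described in cell volume control, read 10.71, 10.81, 10.87, 10.70 and 11.37 in iP, and 10.14 to 10.45 in iNP. The difference was 0.46 ± 0.09 without animal 5 (limma adjusted p 0.0485) and 0.57 ± 0.13 with it (adjusted p 0.149). The other Clns1a probe sets, D13985_at and D13985_g_at, gave 0.00 ± 0.10 and -0.11 ± 0.19 without animal 5, neither called.

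Cytoskeletal and secretory-pathway genes gave further calls. Arpc4 (rc_AA892332_at), a subunit of the Arp2/3 complex that starts branched actin filaments, read 11.43, 11.28, 11.22, 11.50 and 11.39 in iP, and 9.99 to 10.64 (median 10.27) in iNP. Its arrays did not overlap, at 1.07 ± 0.12, a 2.09-fold rise (limma adjusted p 0.00228), and 1.06 ± 0.12 (adjusted p 0.000778) without animal 5. Tmed2 (X92097_at), a cargo receptor that cycles between endoplasmic reticulum and Golgi, read 10.38, 10.40, 10.43, 10.46 and 10.31 in iP, and 9.63 to 9.94 (median 9.72) in iNP. The iP arrays spanned a narrow range above all iNP arrays, at 0.66 ± 0.09 (adjusted p 0.0084). A second Tmed2 probe set, rc_AA866460_at, gave 0.13 ± 0.10 and was not called.

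Tmtc3 (rc_AA893172_at), an endoplasmic-reticulum enzyme that adds mannose to cadherins, read 7.10, 6.61, 4.08, 6.49 and 7.41 in iP, and 8.15 to 9.10 (median 8.83) in iNP. All iP arrays lay below iNP, with animal 3 close to the floor. It was called without animal 5, at -2.68 ± 0.47 (limma adjusted p 0.0184), and not with it, at -2.41 ± 0.49 (adjusted p 0.105). Leaving out iP animal 3 in place of animal 5 gave -1.84 (adjusted p 0.00943). Animal 3 had the lowest value, so leaving it out had to narrow the spread within iP. The call gained that way is no support.

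Fn1 encodes fibronectin of the extracellular matrix. Its probe set X05834_at read 10.06, 10.26, 10.23, 10.64 and 10.91 in iP, and 10.77 to 11.03 (median 10.87) in iNP, with animal 5 inside the iNP range. The difference was -0.59 ± 0.12 without animal 5 (limma adjusted p 0.0408) and -0.47 ± 0.15 with it (adjusted p 0.53). The other Fn1 probe sets were not called without animal 5, at 0.01 ± 0.29 (U82612cds_g_at) and -0.00 ± 0.14 (U82612cds_at).

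Ddx42 (rc_AI639170_at), an RNA helicase of the DEAD-box family, read 7.63, 7.51, 6.91, 7.61 and 5.54 in iP, and 8.59 to 9.30 (median 9.09) in iNP. The lines did not overlap and animal 5 was lowest. The difference was -1.95 ± 0.34 (limma adjusted p 0.0457), and -1.58 ± 0.19 (adjusted p 0.00112) without animal 5. With 11 arrays the call was lost when any single array other than iP 1 or iP 5 was left out, with adjusted p from 0.059 to 0.155 and differences from -2.10 to -1.89. It was also lost without the filter on dim probe sets (adjusted p 0.0942) and without the variance trend (adjusted p 0.0513).

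Lysmd4, a protein with a LysM domain, was lower in iP. Its probe set rc_AA892805_at read 8.46, 8.42, 8.00, 7.87 and 8.65 in iP, and 9.49 to 9.82 (median 9.61) in iNP. The lines did not overlap, at -1.35 ± 0.15 (limma adjusted p 0.00228). The partner probe set of the same record, rc_AA892805_g_at, read 10.99, 10.73, 9.40, 11.00 and 11.21 in iP, and 11.39 to 12.03 in iNP. It was again lower in each iP array, but at -1.03 ± 0.28 it was not called (adjusted p 0.368, or 0.096 without animal 5).

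**Figure D2:**
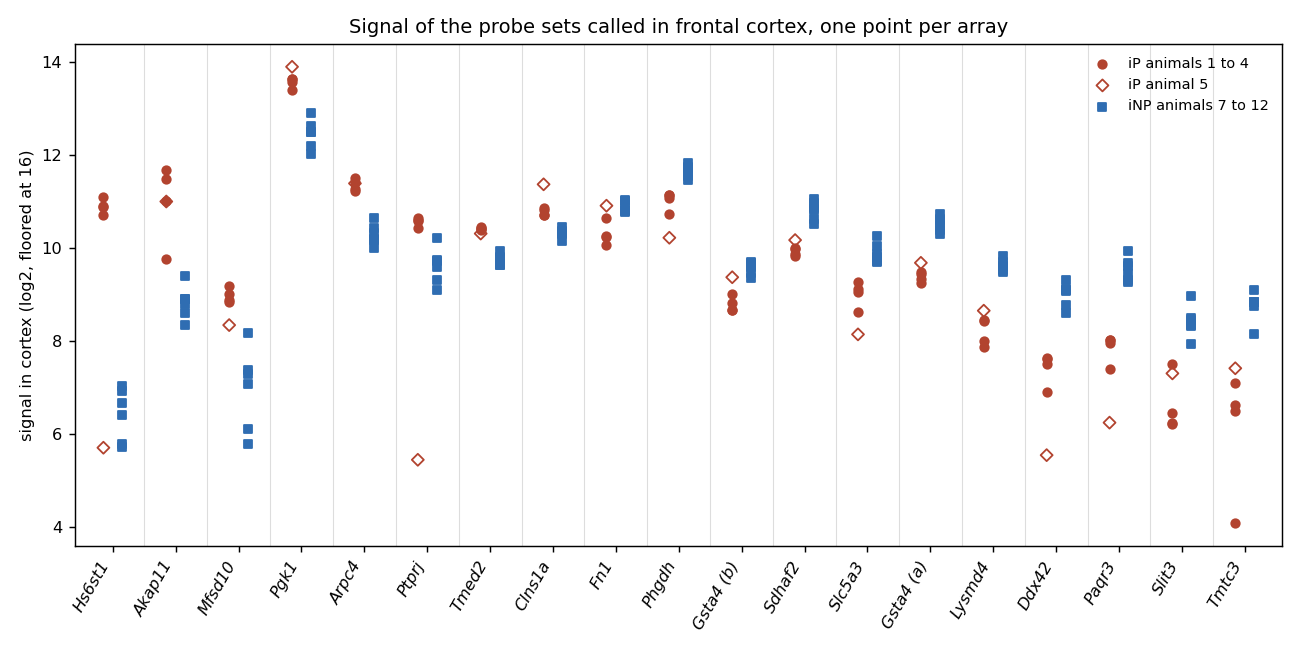
Log2 signal (vertical axis) of the 19 called probe sets with 1 gene symbol, one point per cortex array; red circles are iP animals 1 to 4, open diamonds iP animal 5 and blue squares iNP animals 7 to 12. Gsta4 (a) is X62660mRNA_g_at and (b) is X62660mRNA_at. The open diamond is far below the filled circles for Hs6st1 and Ptprj, at 5.70 and 5.44.

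Each of the remaining 5 called probe sets has no symbol or several. rc_AI639521_at read 7.67, 7.71, 7.38, 7.41 and 4.00 in iP, and 9.01 to 9.26 in iNP, and was called without animal 5 (-1.60 ± 0.13, limma adjusted p 4.81e-05). In animal 5 it was at the floor, which widened the spread with 11 arrays (-2.31 ± 0.57, adjusted p 0.273). rc_AI169802_at, which matches more than one ferritin heavy-chain entry, was higher with both array sets (0.82 ± 0.11, adjusted p 0.00554 with 11), as was AF028784mRNA#1_s_at (0.63 ± 0.11, adjusted p 0.0355 with 11). rc_AI230748_at (-0.63 ± 0.12, adjusted p 0.0408) and rc_AA891054_at (-0.68 ± 0.12, adjusted p 0.0248) were lower, and called with 10 arrays and not with 11.

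The array of iP animal 5 can be set against the 24 calls made without it. Its value was nearer the mean of the other 4 iP arrays for 19 of them and nearer the iNP mean for 5, which were Hs6st1, Ptprj, Fn1, the second Gsta4 probe set and rc_AI230748_at. The 19 include values beyond the iP mean on the side away from iNP and outside all other arrays. Examples are rc_AI639521_at (4.00), Ddx42 (5.54) and Paqr3 (6.24), so 19 is no count of agreement with iP. For 12 of the 24 (50%) animal 5 lay outside all 10 other arrays, as it did for 55.5% of all probe sets tested. Over all 5244 probe sets the lines did not overlap on 64 with 11 arrays (1.22%, 32 higher and 32 lower) and on 97 with 10 (1.85%, 42 higher and 55 lower). All 12 calls made with 11 arrays were among the 64, and 19 of the 24.

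**Figure D3:**
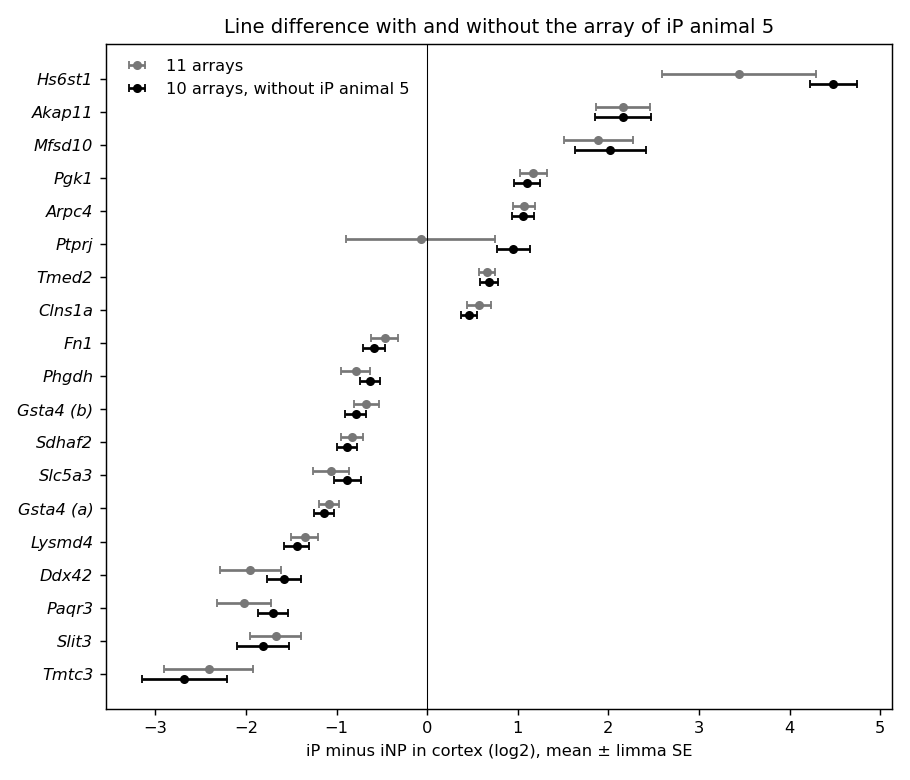
Difference iP minus iNP in cortex (log2, horizontal axis) of the called probe sets with all 11 arrays (grey) and without iP animal 5 (black); bars are limma SE. Gsta4 (a) and (b) are X62660mRNA_g_at and X62660mRNA_at. Hs6st1 moves from 3.44 to 4.48 and Ptprj from -0.07 to 0.95, and Ptprj alone of the 19 changes sign.

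Among probe sets with no call, the 6 largest rises and falls with no overlap on 11 arrays were also read. Higher in iP were Cat, the catalase that breaks down hydrogen peroxide and can oxidise ethanol (0.81 ± 0.22), Lyz2, a lysozyme of myeloid cells (0.73 ± 0.19), Atic of purine synthesis (0.69 ± 0.14), Pcmtd1 (0.64 ± 0.17), the co-chaperone Chordc1 (0.58 ± 0.11) and the disulfide isomerase Pdia4 (0.57 ± 0.12). Their limma adjusted p with 11 arrays ran from 0.0806 (Chordc1) to 0.367 (Cat and Pcmtd1), so none counts as changed. Lower in iP were Dpm2 of dolichol-phosphate mannose synthesis (-1.17 ± 0.56), the serotonin receptor Htr6 (-1.02 ± 0.40), both probe sets of the sodium channel Scn3a (-1.02 ± 0.24 and -0.84 ± 0.19), Cdk5rap3 (-0.77 ± 0.24) and the second probe set of Lysmd4, whose first was called.

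For Dpm2, Htr6 and Cdk5rap3 animal 5 was far below the other iP arrays. Htr6 read 7.81, 7.99, 7.86, 7.86 and 5.45 in iP, and 8.25 to 8.64 (median 8.41) in iNP. Without animal 5 the differences were -0.48 ± 0.16 for Dpm2, -0.54 ± 0.15 for Htr6 and -0.52 ± 0.13 for Cdk5rap3, with limma adjusted p of 0.513, 0.289 and 0.183. Of the 28 genes called or listed here, all placed on GRCr8, Atic and Fn1 are next to each other, with no protein-coding gene between them. They were the one pair within 20 genes of each other, and their differences had opposite signs.

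The other regions came from the same rats, so they are no independent test, and their values stand beside the cortex values as a description. Fitted alone with 12 arrays each, limma called 44 probe sets (0.839%) for striatum, 35 (0.667%) for hippocampus, 38 (0.725%) for amygdala and 30 (0.572%) for accumbens. With the cortex difference taken without iP animal 5, the 24 cortex calls had the same sign in all 4 regions. With that array kept, Ptprj was -0.07 in cortex and positive in the other regions. The share of all probe sets with the same sign throughout is not given, so the 24 have no baseline. Striatum called 21 of them in the same direction, hippocampus 17, amygdala 18 and accumbens 15, and no region called one in the opposite direction.

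In all 4 other regions 13 of the 24 were called, which included Hs6st1, Akap11, Mfsd10, Pgk1, Arpc4, Tmtc3, Paqr3, Ddx42, Lysmd4, Sdhaf2 and the brighter Gsta4 probe set. The Hs6st1 difference was 4.36 (striatum), 4.05 (hippocampus), 4.28 (amygdala) and 4.95 (accumbens), where iP animal 5 was part of each fit. Akap11 differed by 2.73, 2.37, 2.25 and 3.24 in the same order. Fn1, Phgdh and rc_AI639521_at were called in 3 regions, and Slc5a3, Clns1a, rc_AI230748_at and the second Gsta4 probe set in 2.

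Slit3 was called in accumbens alone among the others, at -1.60, with -1.05 in striatum, -0.28 in hippocampus and -0.65 in amygdala. Tmed2 was called in striatum alone, at 0.72, with 0.67, 0.56 and 0.45 elsewhere. Ptprj and AF028784mRNA#1_s_at were called in none; Ptprj gave 0.77, 1.37, 0.47 and 0.36, and AF028784mRNA#1_s_at 0.20, 0.18, 0.19 and 0.27.

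**Figure D4:**
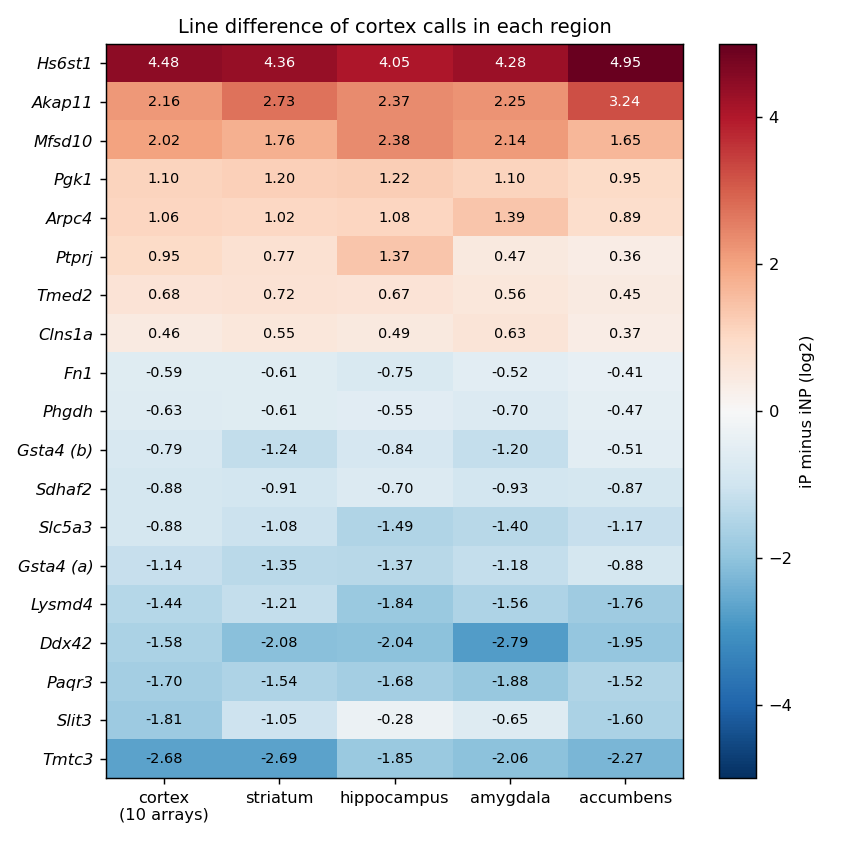
Difference iP minus iNP (log2, colour and number) of the called probe sets in cortex without iP animal 5 and in the other 4 regions, one row per probe set. Gsta4 (a) and (b) are X62660mRNA_g_at and X62660mRNA_at. Signs are the same across each row; Slit3 runs from -1.81 in cortex to -0.28 in hippocampus.

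Whether the line difference in cortex was unlike that elsewhere was tested directly, as the cortex difference minus the average difference of the remaining regions, blocked by rat. With limma no probe set was called among 5244; 236 had an unadjusted p under 0.05 and the smallest adjusted p was 0.949. Without cortex of iP animal 5 again none was called, 176 had an unadjusted p under 0.05 and the smallest adjusted p was 0.999. The interaction was -0.81 ± 0.46 for Slit3 (unadjusted p 0.084), -0.52 ± 0.24 for Akap11 (0.0323), -0.73 ± 0.60 for Ptprj (0.236) and -0.96 ± 0.49 for Hs6st1 (0.0573), which became 0.02 without animal 5. For AF028784mRNA#1_s_at, which has no single symbol, it was 0.43 ± 0.12 (limma unadjusted p 0.000569). Without animal 5 that interaction was 0.38 ± 0.12 (unadjusted p 0.00349).

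The smallest interaction p among probe sets with 1 symbol belonged to Cdk5rap3, at -0.77 ± 0.20 (limma unadjusted p 0.000362). It was followed by Hsd3b7 (1.35 ± 0.39), Gyg1 (-0.45 ± 0.13), the dynein light chain Dynlt1 (0.31 ± 0.09), Htr6 (-0.89 ± 0.28) and Pdlim5 (-1.24 ± 0.40). For Cdk5rap3 the lines differed by -0.77 in cortex and by -0.13 to 0.14 in the other regions. Animal 5 read 8.29 there and the other 4 iP arrays 9.31 to 9.72, and without it the interaction was -0.55 (unadjusted p 0.0058). None of these 6 passed the adjusted threshold.

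Pathway and cell-type lists, 30 in all, held 352 distinct tested genes, each read on its brightest probe set. With 11 arrays 6 of these genes were called, and with 10 arrays 10, where 0.229% and 0.458% of all tested probe sets were called. The lists were chosen with earlier results of these data known, so these counts are no independent evidence. On 21 of the lists no member was called with either set. Over the 3174 genes tested the median difference was 0.01, and 5.51% had an unadjusted p under 0.05 with 11 arrays and 5.7% with 10. Values from here on leave out iP animal 5 unless stated.

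Beside Hs6st1, the 11 other tested genes of heparan sulfate and proteoglycans were not called, with a list median of 0.05. The N-sulfating enzyme Ndst1 gave -0.24, the syndecans Sdc2, Sdc3 and Sdc4 0.05, 0.34 and 0.03, and the glypicans Gpc1 and Gpc3 -0.24 and 0.49. Among 10 axon-guidance genes Slit3 was the one call, and the median was 0.08. Its relative Slit1 gave 0.18, the receptor Robo2 0.13 and the semaphorin receptor Nrp1 -0.32 ± 0.13 (limma adjusted p 0.717).

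Of 19 protein kinase A signalling genes 1 was called, Akap11, and the median was 0.07; the anchoring protein Akap12 gave 0.41 ± 0.23. Of 10 actin genes 1 was called, Arpc4, with a median of 0.01. Among 24 glutathione and antioxidant enzymes Gsta4 alone was called and the median was -0.02; Gstm7 gave 0.28 ± 0.11 (limma adjusted p 0.75), and superoxide dismutases Sod1 and Sod2 0.03 and 0.08. Of 13 glycolysis genes 1 was called, Pgk1, and the rest lay between -0.14 (the hexokinase Hk2) and 0.07 (the phosphofructokinase Pfkm), with a list median of -0.01.

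Osmolyte transport and serine synthesis, 12 genes, held 3 calls without animal 5, with Clns1a higher and Slc5a3 and Phgdh lower, and none with it. Over all tested probe sets 0.458% were called without animal 5 and 0.229% with it. An unadjusted limma p under 0.05 was reached by 8 of the 12 with either array set (all genes: 5.51% with 11, 5.7% with 10). The others were Gatm of creatine synthesis (0.50 ± 0.16), the asparagine synthetase Asns (0.49 ± 0.14), the sorbitol-making reductase Akr1b1 (0.34 ± 0.09), Psat1, which acts after Phgdh (0.20 ± 0.08), and the nucleoside carrier Slc28a2 (-0.64 ± 0.17). The signs were mixed, with 6 of 12 higher and a median of 0.01. The list was chosen with earlier results of these data known, so its counts are no independent evidence. Of 8 genes of mitochondrial complex II and the citrate cycle 1 was called, Sdhaf2, and 2 of 8 were higher (median -0.17); the complex II subunit Sdha gave 0.02 and Mdh1 -0.21 ± 0.07 (limma adjusted p 0.534).

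The alcohol preference candidates were picked with earlier work on such rats in view and are no independent evidence. Of 10 tested, Gsta4 alone was called, lower in iP, with a list median of -0.12. Npy, the neuropeptide Y precursor, read 11.15, 11.36, 11.43, 11.35 and 11.73 in iP animals 1 to 5, and 11.43 to 11.80 (median 11.67) in iNP. Without animal 5 its difference was -0.33 ± 0.10 (limma adjusted p 0.375). The metabotropic receptors Grm3, Grm7 and Grm2 gave -0.44 ± 0.26, -0.10 ± 0.12 and 0.05 ± 0.14, Crh 0.26 ± 0.19, Pdyn 0.02 ± 0.14, Cnr1 -0.13 ± 0.12, Neurod1 -0.26 ± 0.14 and Aldh2 0.17 ± 0.13. Of 13 alcohol and aldehyde oxidation genes none was called, and 9 were higher (median 0.12), with Cat at 0.67 ± 0.21 and Aldh1a1 at 0.41 ± 0.12.

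No receptor list had a call with either array set. Medians were -0.01 for 14 AMPA, NMDA and kainate receptor genes, -0.10 for 5 metabotropic glutamate, 0.03 for 10 GABA, -0.06 for 18 serotonin, dopamine and noradrenaline and -0.03 for 7 acetylcholine receptor genes. With animal 5 these were -0.18, -0.18, -0.05, -0.12 and -0.14, and its own mean over the AMPA, NMDA and kainate genes was 8.73, below the other 4 iP arrays (9.23 to 9.57) and iNP (9.30 to 9.57). The serotonin receptor Htr4 gave 0.97 ± 0.50 and Htr6 -0.54 ± 0.15. Nor was any member called among 17 opioid and stress peptide genes (median 0.01), 21 activity-induced genes (-0.04), 8 sodium channel and pump genes (-0.02; Scn1a 0.51 ± 0.18, Scn3a -0.90 ± 0.23) or 23 heat shock and chaperone genes (0.05).

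The list of MHC and antigen processing had 18 tested genes and no call. In mixed directions, 8 had an unadjusted limma p under 0.05, against 5.7% of all genes. This list too was chosen with earlier results known, so the count is no independent evidence. Of the class I genes, RT1-A stood at -0.61 ± 0.13 (limma adjusted p 0.0528), RT1-CE12 at -0.50 ± 0.11, RT1-CE16 at -0.49 ± 0.19, RT1-S3 at -0.25 ± 0.12, RT1-M3-1 at -0.02 ± 0.13 and B2m, the light chain of class I, at -0.40 ± 0.09. Class II genes had both signs, with Cd74 at 1.42 ± 0.52, RT1-Da at 0.55 ± 0.23, RT1-Ba at 0.27 ± 0.15, RT1-Bb at 0.21 ± 0.25, RT1-DMa at 0.08 ± 0.15, RT1-DMb at -0.11 ± 0.12 and RT1-Db1 at -0.16 ± 0.26, while the proteasome genes Psmb8 and Psme1 gave 0.50 ± 0.17 and 0.44 ± 0.20. Many class I genes are closely alike in sequence, so a probe set named for 1, such as RT1-A or RT1-CE12, may read others.

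**Figure D5:**
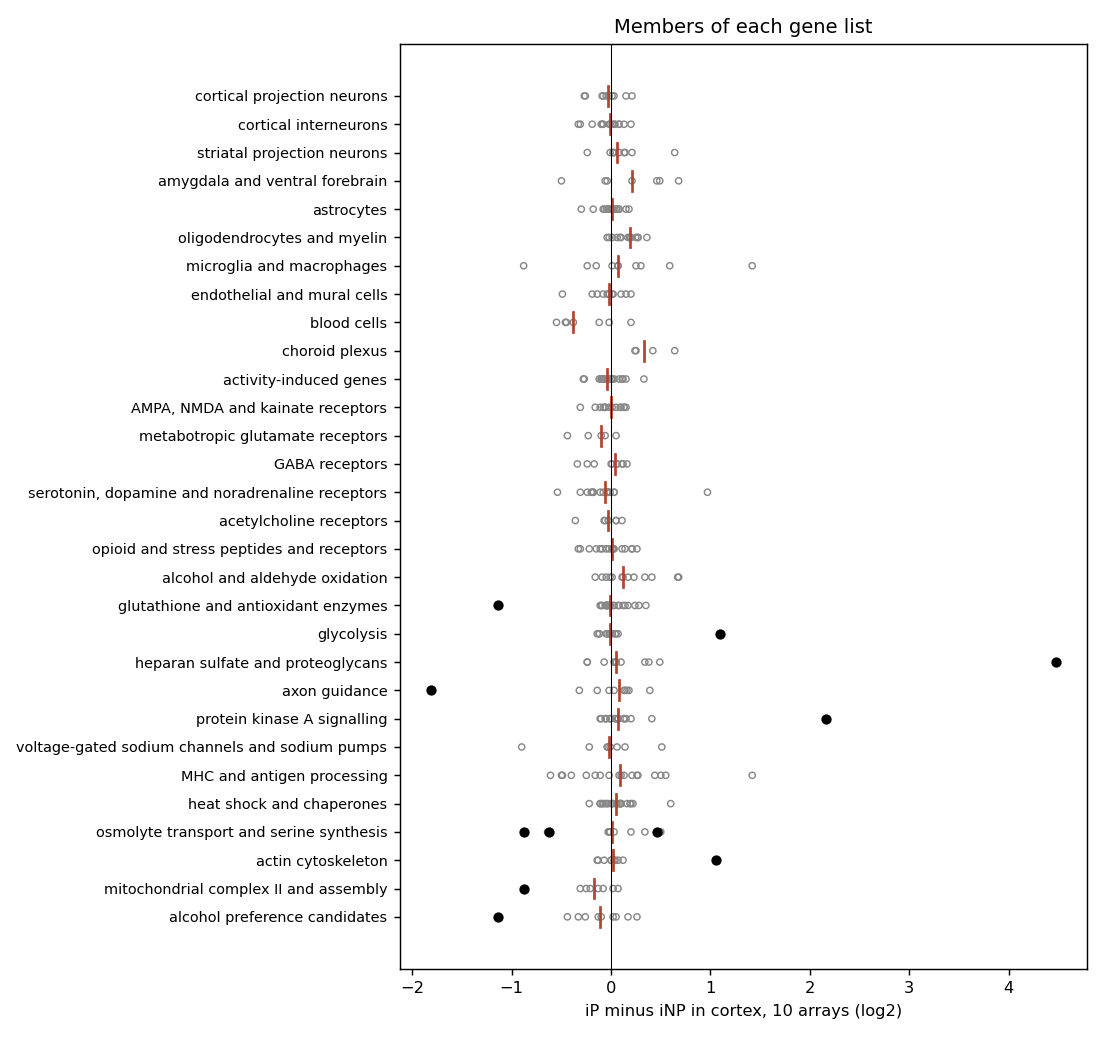
Difference iP minus iNP in cortex without iP animal 5 (log2, horizontal axis) of every tested member of the 30 gene lists; black points were called, open grey points were not, and red bars are list medians. Hs6st1 lies at 4.48 with a list median of 0.05, while in the osmolyte and serine list called Clns1a (0.46) and Phgdh (-0.63) lie among uncalled members.

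No member of a cell-type marker list was called with either array set. Probe sets without a single symbol, such as the called AF028784mRNA#1_s_at, belong to no list. A marker read only by such a probe set was therefore not counted. Medians were -0.04 for 10 cortical projection-neuron genes, -0.01 for 15 interneuron, 0.06 for 10 striatal, 0.21 for 7 amygdala and ventral forebrain, 0.01 for 18 astrocyte, 0.19 for 15 oligodendrocyte and myelin, 0.07 for 10 microglia and macrophage, and -0.02 for 12 endothelial and mural genes. Of the myelin genes 13 of 15 were higher in iP, with Mog at 0.36 ± 0.12 (limma adjusted p 0.564), and their mean level was 11.38 to 11.63 in iP animals 1 to 4 and 11.10 to 11.50 in iNP. Of the 10 microglia and macrophage genes 5 had an unadjusted limma p under 0.05, against 5.7% of all genes. The microglial receptor P2ry12 gave -0.88 ± 0.23 (adjusted p 0.19) and Ctss -0.24 ± 0.08. Lyz2 gave 0.59 ± 0.16, Cd74 1.42 ± 0.52 and Ptprc 0.30 ± 0.14, so markers of that cell type did not share a direction. This list was also chosen with earlier results known, so its count is no independent evidence. In bulk tissue fewer cells of a type and less RNA per cell cannot be told apart.

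Differences were negative for 6 of 7 blood markers, with a median of -0.38, and none was called. Hbb-b1 gave -0.55 ± 0.16 (limma adjusted p 0.307) and Hbb -0.46 ± 0.15, and these probe sets may read several globin genes. The mean over the 7 was 10.15 to 10.45 in iP animals 1 to 4, 10.39 in animal 5 and 10.13 to 11.02 in iNP, so the groups overlapped. All 4 choroid plexus genes tested were higher (median 0.34; Igf2 0.64 ± 0.21), with means of 9.70 to 10.78 in iP animals 1 to 4 and 9.48 to 10.35 in iNP. The part of blood or choroid tissue in the line differences was not tested.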

How the data were processed

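The deposited values are intensity signals per probe set on a linear scale of a rat Affymetrix expression array; the authors' program and scaling are not given in the sources used here. All 59 arrays had the same 2% trimmed mean (1000.0), so the values were left as scaled. Log2 was taken after raising signals under 16 to that floor. Of 8799 probe sets, 59 controls and the dimmest 40% by mean over all arrays were left out, which left 5244. Of those on the array 7006 have 1 gene symbol, 308 several and 1426 none; 6985 matched GRCr8 by gene ID.

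Lines were compared with limma 3.58.1 (R 4.3.3; empirical Bayes with a variance trend, two-sided, Benjamini-Hochberg adjusted p under 0.05), for each region alone and as an interaction with the animal as a block. The fit was tested on simulated data. Named were all called probe sets with 1 symbol and the other probe sets of their genes; the 6 largest uncalled rises and falls without overlap; the 6 smallest interaction p-values; called members of each list and the 2 with the smallest p; all preference candidates; and Hs6st1. Other list members and probe sets without a single symbol were named after their values were seen. The members, lists and tests were chosen with earlier results of these data known. Precision rests on how many rats were measured, since arrays carry no counts.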

Additional observations from a re-analysis of the deposited data

Results flagged for a closer look

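Within each line, 80 groups of arrays were examined for a highest or lowest array separated from the rest by a wide gap (Dixon's criterion), and 15 values met it. The marked values lay on 4 arrays, and 11 of the 15 on iP animal 5. Chance gives about 1 in 20 groups, but iP animal 5 was already known to stand apart and some of the genes were chosen for calls made without it, so its share is a description and is not set against that rate.

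In quality measures, iP animal 5 had a median signal of 254 (other iP arrays 331 to 355), a Gapdh 3′ to 5′ log2 ratio of 6.14 (0.0368 to 0.0982), an actin ratio of 4.42 (0.227 to 0.873) and a mean correlation with its own line of 0.812 (0.921 to 0.932). In genes, it read low on Hs6st1 (5.70, against 10.72 to 11.09), Ptprj (5.44, against 10.44 to 10.65), Dpm2 (4.97, against 8.02 to 8.69), Cdk5rap3 (8.29, against 9.31 to 9.72) and Htr6 (5.45, against 7.81 to 7.99). It read high on Cat (9.81, against 9.06 to 9.27) and Clns1a (11.37, against 10.70 to 10.87).

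Array iP 3 read low on Tmtc3 (4.08, against 6.49 to 7.41) and on the second Lysmd4 probe set (9.40, against 10.73 to 11.21). In the non-preferring line, iNP 11 read low on Tmtc3 (8.15, against 8.74 to 9.10) and iNP 8 on Dynlt1 (8.95, against 9.27 to 9.35).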

How the results depend on the processing

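With 11 arrays, the 12 calls became 37 with array weights (40.5% higher in iP) and 30 with the Gapdh ratio as a covariate (36.7%). All 12 were kept in both. The covariate nearly singles out the array of iP animal 5 and weights can count it less, so neither fully keeps that array. Leaving out 1 array at a time gave 9 to 24 calls, with 24 (41.7% higher) for the array of iP animal 5; with that array left out already, it gave 17 to 24. With all regions in 1 fit there were 57 calls without a replicate block and 56 with the animal as a random replicate block, and 37 with that block when cortex of iP animal 5 was left out. The lines share no animal numbers, so the block pairs regions of a rat, not the lines. With the 10 arrays, all other alternatives gave counts within 1.5 times of 24. With 11 arrays, floors of 32 and 64, other filters, quantile normalization and no variance trend gave 8 to 15.

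The cortex interaction stayed at 0 calls in every alternative run. Of 206 repeats over the 10 called probe sets with a symbol, 185 kept the call and 21 lost it, all for Ddx42 or Slit3; none changed sign. Of 516 repeats over 25 uncalled ones, 66 gained a call (Hs6st1 and Mfsd10 among them, also with iP animal 5 kept) and 6 changed sign, all for Ptprj: 0.04 with a floor of 64, 0.32 with quantile normalization, 0.84 with array weights, 0.94 with the covariate, 0.95 without iP animal 5 and 0.05 without iNP animal 9; leaving out 1 array at a time it ran from -0.35 to 0.95.

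Without iP animal 5, list medians moved to -0.01 (interneurons, AMPA, NMDA and kainate receptors, glycolysis), 0.06 (striatal), -0.04 (activity-induced), -0.03 (acetylcholine) and 0.01 (opioid and stress). With all 11 arrays and every probe set of a gene averaged, medians moved from 0.03 to -0.13 (glycolysis), from 0.02 to -0.06 (protein kinase A) and from -0.10 to -0.20 (sodium channels). Without the array of iP animal 5 the line differences in quality turned from -17.2 to 1.3 (median signal), 1.2 to -0.0166 (Gapdh), 0.705 to -0.0771 (actin) and 0.379 to -0.0341 (hexokinase). The cause was not tested.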
